A study of Mus musculus with 12 samples.

Results

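Prostaglandin and leukotriene pathway genes were followed across the colon epithelium of wild type and POR-null mice fed a control or a quercetin diet. The members were 9 genes, namely the phospholipases Pla2g4a and Pla2g2a, the cyclooxygenases Ptgs1 and Ptgs2, the prostaglandin E synthase Ptges, the prostaglandin E2 receptor Ptger4, the prostaglandin dehydrogenase Hpgd, and Alox5 and Alox5ap of leukotriene synthesis. They were matched by the gene symbol in the array annotation. Of the 9 genes, 7 had a probe set (a group of short probes for a transcript) named with that symbol alone, 11 probe sets of the 22626 tested. No probe set was named for Ptgs1 or Alox5, which are not analysed here.

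The pathway starts when a phospholipase A2 frees arachidonic acid from membrane lipids. Cyclooxygenases turn the fatty acid into prostaglandin H2, from which terminal synthases make prostaglandin E2 and other prostanoids, and in the gut prostaglandin E2 is known for its part in mucosal repair and in tumour growth. The enzyme 5-lipoxygenase (Alox5), working with its activating protein (Alox5ap), takes the same fatty acid towards leukotrienes, which are made mainly by myeloid cells and mast cells. Quercetin, a plant flavonol, is known to inhibit several of these enzymes, which is an action on protein activity. The arrays measured RNA.

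All mice were male C57BL/6 animals of 6 to 8 weeks, kept for 14 days on a soya-free powdered diet (RM3). For the last 24 hours they had the same powder alone (control) or with quercetin at 6200 ppm, a dose of 7 mg for each mouse. The 4 groups were wild type on control diet, wild type on quercetin, POR-null on control diet and POR-null on quercetin, and POR-null mice lack cytochrome P450 reductase, which hands electrons to microsomal cytochromes P450. The labels name neither the allele nor the cell type in which it acts. Each group had 3 arrays, each with RNA scraped from the colon lining of 3 mice and pooled, so that a replicate is a pool and a group holds 9 mice. The values are deposited log2 signals, on which a difference of 1 is a 2-fold difference, and signals of different probe sets are not compared with each other because probes differ in how well they bind.

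Array medians lay between 5.90 and 5.98, and the list mean of 13 colon epithelium markers lay between 11.77 and 12.07 in all 12 arrays. Within that list Aqp8 ran from 9.52 to 11.14 and Krt8 from 12.96 to 13.19. Tuft cell markers (8 genes) had list means from 5.25 to 5.44 and neutrophil markers (9 genes) from 5.68 to 6.01. The lists of some other cells in the scrapings varied more. Smooth muscle markers (11 genes) had list means from 5.86 to 9.37, pancreatic acinar markers (12 genes) from 6.06 to 9.83, and B and plasma cell markers (9 genes) from 6.18 to 7.96. Wild type control arrays 2 and 3 stood apart from the other 10 on the first principal component, at 24.68 and 24.90 against -24.20 to 9.94. For quercetin in wild type mice 11 of 11 smooth muscle markers were on the higher side, with a median of 1.96, and 0 of 11 passed. In scraped tissue, fewer cells of a type and less RNA per cell cannot be told apart.

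No member passed the test in any comparison. With limma, a linear model fitted across all probe sets, and Benjamini-Hochberg adjustment over all of them at 0.05, 0 of 11 member probe sets passed for quercetin in wild type mice, for quercetin in POR-null mice, or for genotype on either diet, where 0% of all probe sets passed as well. The adjusted p of the members was 0.948 or more for quercetin in wild type mice, 1.00 in POR-null mice, at least 0.710 for genotype on control diet and at least 0.998 for genotype on quercetin. An unadjusted p under 0.05 was reached by 1 member probe set for quercetin in wild type mice (5.15% of all), 1 in POR-null mice (2.82% of all), 3 for genotype on control diet (6.79% of all), 0 for genotype on quercetin (2.39% of all) and 1 for the interaction (4.74% of all). The arrays of the groups compared did not overlap for 1 member probe set for quercetin in wild type mice (9.31% of all), 2 in POR-null mice (6.75% of all), 1 for genotype on control diet (9.67% of all) and 1 on quercetin (6.82% of all). Each of these comparisons shares arrays with others, so their values are not independent. The first and the third share the wild type controls, and the second and the third share the POR-null controls.

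The arrays also bound how large a difference in signal could be. For dim probe sets a narrow interval does not bound the RNA. Both Ptgs2 probe sets (12.6th and 4.85th percentile of mean signal) and the dim Ptger4 probe set (20.9th) are of this kind. All 44 intervals (11 probe sets in 4 comparisons, unadjusted, 95%) stayed within 1 log2 unit of 0, and 41 of them within 0.6. The widest reached 0.99 log2 units for Alox5ap between the genotypes on control diet, a bound of 1.98-fold. The intervals rest on 1 spread shared by all 4 groups, and this bound depends on that. In a fit of only the groups compared, the same Alox5ap difference had a limma unadjusted p of 0.0741. Its 95% interval there thus included 0 and, being symmetric, reached beyond 1 log2 unit. For quercetin averaged over both genotypes the widest bound was 0.45 log2 units, or 1.37-fold. For the interaction, a difference of differences, 10 of 11 intervals stayed within 1 log2 unit, and that of Alox5ap reached 1.19, or 2.27-fold. The medians over the 7 genes were -0.04 for quercetin in wild type mice and 0.04 in POR-null mice, against 0.00 and 0.01 over all probe sets. They were -0.10 for genotype on control diet and -0.02 on quercetin, against -0.01 and -0.01 over all probe sets.

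**Figure D1:**
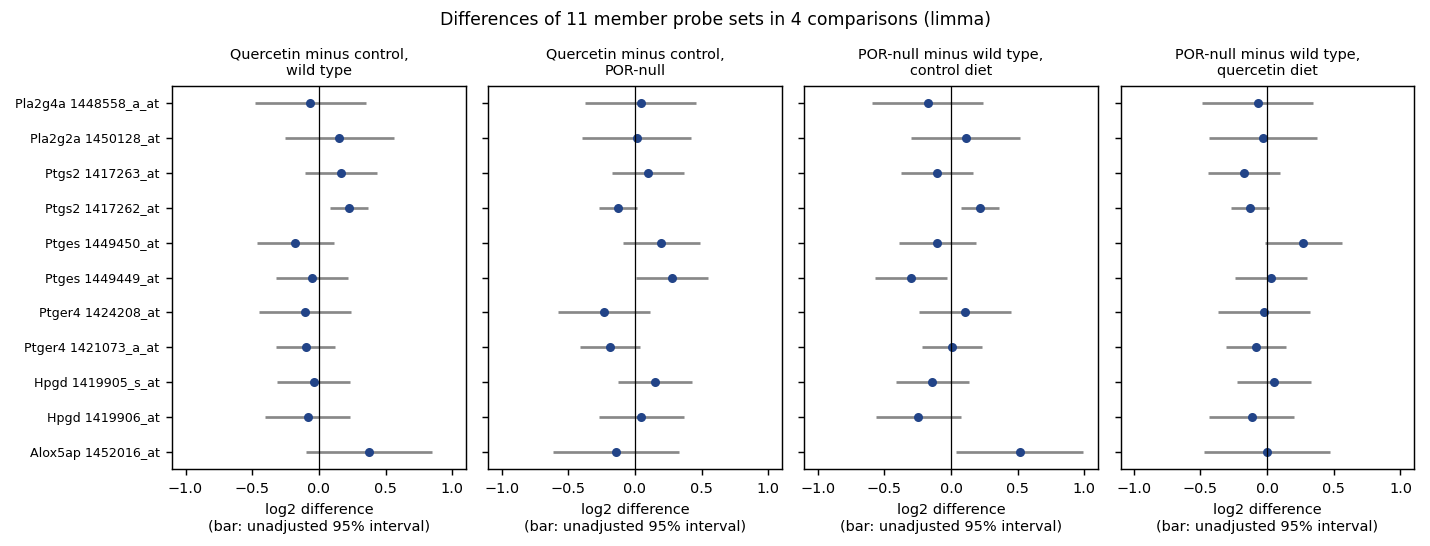
Log2 differences of the 11 member probe sets (rows) in 4 comparisons (panels), with the x axis in log2 units; points are limma estimates from 3 arrays a group and bars are unadjusted 95% intervals. The bars use 1 spread shared by all 4 groups. All bars stay within 1 log2 unit of 0, and the longest, for Alox5ap between genotypes on control diet, reaches 0.99.

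The plot of values by array shows each gene by its probe set of the highest mean signal.

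**Figure D2:**
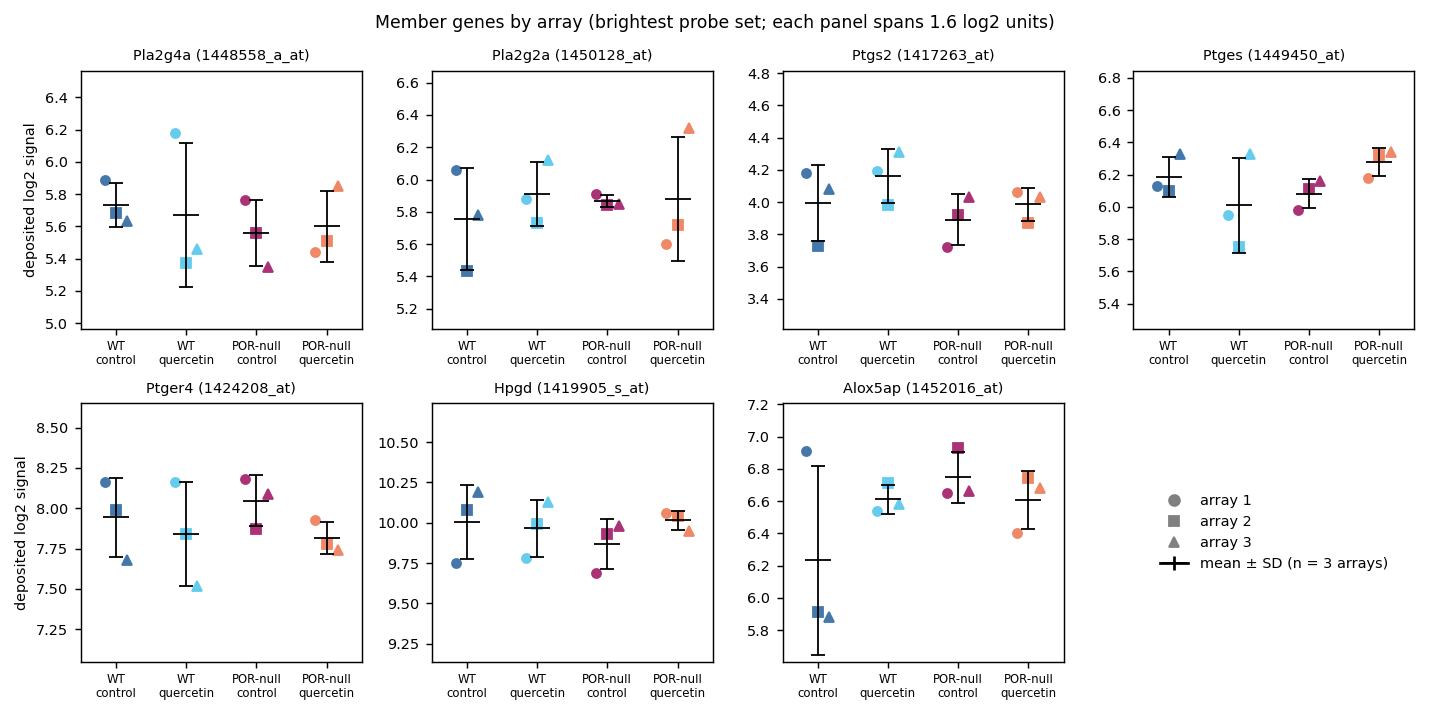
Deposited log2 signal (y axis, 1.6 log2 units in each panel) of 7 member genes in 12 arrays by group (x axis); circles, squares and triangles are arrays 1, 2 and 3, and black bars are the mean and SD of 3 arrays. In each panel the groups overlap in at least 3 of the 4 comparisons, and wild type control arrays 2 and 3 are set apart for Alox5ap, at 5.91 and 5.88.

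Pla2g4a encodes the calcium-dependent cytosolic phospholipase A2 that selects arachidonic acid. Its signal was 5.89, 5.68 and 5.63 in the wild type control arrays, 6.18, 5.37 and 5.46 on quercetin, 5.76, 5.56 and 5.35 in POR-null controls and 5.44, 5.51 and 5.85 in POR-null mice on quercetin. All 4 groups overlapped, and the highest and the second lowest array belonged to the same group, wild type on quercetin. The difference with quercetin was -0.06 (SE 0.19, n = 3 arrays a group) in wild type and 0.04 (SE 0.19) in POR-null mice. The genotype difference was -0.18 (SE 0.19) on control diet and -0.07 (SE 0.19) on quercetin, each smaller than its SE. The SD was 0.14 in wild type and 0.21 in POR-null controls, and 0.44 and 0.22 on quercetin. In the mouse gene order of RefSeq, Pla2g4a and Ptgs2 are neighbours.

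Pla2g2a encodes a secreted phospholipase A2 that Paneth cells make in many strains, and C57BL/6 mice are known to carry a disrupted copy. RefSeq lists it as a transcribed pseudogene in the C57BL/6J assembly. Its probe set read 6.06, 5.43 and 5.78 in wild type controls, 5.88, 5.73 and 6.12 on quercetin, 5.91, 5.84 and 5.85 in POR-null controls and 5.60, 5.72 and 6.32 in POR-null mice on quercetin. The groups overlapped in each comparison, and the 12 arrays spanned 0.89 log2 units around a mean at the 48.1st percentile of all probe sets. Quercetin differences were 0.15 (SE 0.19) in wild type and 0.01 (SE 0.19) in POR-null mice, with n = 3 arrays a group.

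Ptgs2 is the inducible cyclooxygenase, an immediate early gene known to be switched on by cytokines and growth factors. Both of its probe sets were dim in all 12 arrays, at the 12.6th and the 4.85th percentile of mean signal. The brighter, 1417263_at, read 4.18, 3.73 and 4.08 in wild type controls, 4.19, 3.98 and 4.31 on quercetin, 3.72, 3.92 and 4.03 in POR-null controls and 4.06, 3.87 and 4.03 in POR-null mice on quercetin. It overlapped between all groups compared, with quercetin differences of 0.16 (SE 0.12) in wild type and 0.10 (SE 0.12) in POR-null mice. The wild type value was 0.03 without control array 2.

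The dimmer Ptgs2 probe set, 1417262_at, had a spread within groups of only 0.03 to 0.09 (SD, n = 3). It read 3.32, 3.41 and 3.29 in wild type controls and 3.60, 3.55 and 3.54 on quercetin, with no overlap, a difference of 0.22 (SE 0.07, limma adjusted p = 0.948). In POR-null mice it read 3.60, 3.61 and 3.47 on control diet and 3.49, 3.33 and 3.48 on quercetin, a difference of -0.13 (SE 0.07) with overlap. The POR-null arrays thus lay above wild type on control diet and below it on quercetin, without overlap on either diet. How many of all probe sets had this pattern was not computed. The test of that difference, the interaction of genotype and diet, gave -0.35 (SE 0.09, limma adjusted p = 0.998). The other probe set gave -0.11 and -0.17 for genotype on the 2 diets, so that the probe sets disagreed in sign on control diet.

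The promoters of Ptgs2 and Hpgd are shown because these genes stand at the entry to and the exit from the prostaglandin E2 branch. Each runs from 250 bases before to 50 bases after the transcription start, 5′ to 3′ on the gene's own strand, from RefSeq on GRCm38.p6. They lie at chr1:150099781-150100080 (plus strand) for Ptgs2 and chr8:56294302-56294601 (plus strand) for Hpgd. Of the 9 members, 7 had an entry in the promoter table, Pla2g4a with 2 of them. Capitals mark matches on either strand to the TATA box motif TATAAA, the half-site CGTCA of the cyclic AMP element, the E-box motif CACGTG and the dioxin response element core GCGTG.
Ptgs2: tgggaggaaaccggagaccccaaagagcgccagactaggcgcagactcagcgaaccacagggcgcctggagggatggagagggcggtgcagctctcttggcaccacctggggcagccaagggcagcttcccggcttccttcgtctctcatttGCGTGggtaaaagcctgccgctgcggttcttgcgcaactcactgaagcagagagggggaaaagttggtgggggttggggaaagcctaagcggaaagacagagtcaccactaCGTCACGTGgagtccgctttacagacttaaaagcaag
Hpgd: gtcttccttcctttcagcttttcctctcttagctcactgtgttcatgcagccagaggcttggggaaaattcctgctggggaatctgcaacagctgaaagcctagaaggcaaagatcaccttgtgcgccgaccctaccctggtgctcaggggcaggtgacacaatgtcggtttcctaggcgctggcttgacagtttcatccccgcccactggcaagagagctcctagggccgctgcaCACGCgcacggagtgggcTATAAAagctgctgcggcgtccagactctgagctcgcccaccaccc
The Ptgs2 window held a CGTCA match at 14 and a CACGTG match at 17 bases from the start, which share 2 bases, and a GCGTG match at -98. The Hpgd window held a TATAAA match at 5 and a GCGTG match, on the other strand, at -14. Among 32851 mouse promoter windows of the same length, 13.6% held TATAAA, 20.8% CGTCA, 7.15% CACGTG and 32.4% GCGTG.

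Ptges encodes the inducible microsomal synthase that makes prostaglandin E2 from the product of the cyclooxygenases. Its brighter probe set, 1449450_at, read 6.13, 6.10 and 6.33 in wild type controls, 5.95, 5.75 and 6.33 on quercetin, 5.98, 6.11 and 6.16 in POR-null controls and 6.18, 6.32 and 6.34 in POR-null mice on quercetin. The POR-null quercetin arrays lay above the POR-null controls without overlap, by 0.20 (SE 0.13, limma adjusted p = 1.00, n = 3 arrays a group). In wild type mice the groups overlapped and the difference was -0.18 (SE 0.13), and it ran from -0.34 without quercetin array 3 to -0.05 without quercetin array 2.

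The second Ptges probe set, 1449449_at, read 5.57, 5.36 and 5.94 in POR-null controls and between 5.85 and 5.98 in each of the other 9 arrays. POR-null control arrays 1 and 2 were thus the low ones, and array 3 lay among the rest. The difference was 0.28 (SE 0.12, limma adjusted p = 1.00) for quercetin in POR-null mice and -0.30 (SE 0.12, limma adjusted p = 0.726) for genotype on control diet. Interaction estimates were 0.37 (SE 0.19) and 0.33 (SE 0.18) for the brighter and the dimmer probe set, with limma adjusted p = 0.998 for both. The genes with the most similar course to Ptges over the 12 arrays, among 7296 of at least median signal, were Elac2 (Pearson r = 0.889), H2-D1 (0.882) and Vps45 (0.822), given as a description of genes picked for their likeness.

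Ptger4 encodes EP4, a receptor that raises cyclic AMP when prostaglandin E2 binds. Its bright probe set, 1424208_at, read 8.16, 7.99 and 7.68 in wild type controls, 8.16, 7.84 and 7.52 on quercetin, 8.18, 7.87 and 8.09 in POR-null controls and 7.93, 7.78 and 7.74 in POR-null mice on quercetin. The groups overlapped in all 4 comparisons. Quercetin differences were -0.10 (SE 0.16) in wild type and -0.23 (SE 0.16) in POR-null mice, n = 3 arrays a group, and -0.17 (SE 0.11, limma adjusted p = 0.998) on average.

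The dim Ptger4 probe set, 1421073_a_at, gave the same sign in both genotypes, -0.10 (SE 0.10) and -0.19 (SE 0.10). In POR-null mice its quercetin arrays (4.37, 4.33 and 4.46) lay below the control arrays (4.50, 4.48 and 4.75) without overlap, with limma adjusted p = 1.00. The genes closest to Ptger4 in course over 12 arrays were Capn10 (r = 0.895), Pum2 (0.857) and Cttnbp2nl (0.840).

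Hpgd encodes 15-hydroxyprostaglandin dehydrogenase, which inactivates prostaglandin E2 and is known as an enzyme of mature colonocytes. Its bright probe set, 1419905_s_at, read 9.75, 10.08 and 10.19 in wild type controls, 9.78, 9.99 and 10.13 on quercetin, 9.69, 9.93 and 9.98 in POR-null controls and 10.06, 10.04 and 9.95 in POR-null mice on quercetin. All 12 arrays fell within 0.50 log2 units, and the groups overlapped throughout. Differences ran from -0.14 (SE 0.13) for genotype on control diet to 0.15 (SE 0.13) for quercetin in POR-null mice, and the second probe set, 1419906_at, gave -0.25 (SE 0.15) and 0.05 (SE 0.15) in the same comparisons. By the bright probe set the genotype difference on control diet ran from -0.27 without wild type control array 1 to -0.05 without array 3.

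Among the genes with a course like that of Hpgd, Slc51a came first, with r = 0.930 over 12 arrays (0.890 without the 2 arrays farthest from the Hpgd median). It encodes a subunit of a basolateral exporter of bile acids and ranged from 8.22 to 10.09. Gpha2 (r = 0.902) and Nes (r = 0.889) followed.

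By their bright probe sets, Hpgd and Ptger4 ran opposite to each other from array to array. Ptger4 was highest, at 8.16, 8.16 and 8.18, in the first arrays of wild type controls, wild type on quercetin and POR-null controls, and these were the 3 arrays with the lowest Hpgd, at 9.75, 9.78 and 9.69. The correlation over 12 arrays was Pearson r = -0.786 (permutation p = 0.00255, 100000 permutations, two-sided) and Spearman rho = -0.732 (permutation p = 0.00901). Over the 21 pairs of the 7 genes the Benjamini-Hochberg values were 0.0535 and 0.175, so the relation did not pass, and 0 pairs did. It was -0.710 without the 2 arrays farthest from the Ptger4 median, -0.662 without the 2 farthest from the Hpgd median and -0.788 after each group's mean was removed. The second probe sets were not tested for this relation, and they did not show it at the extremes of Ptger4. The dim Ptger4 probe set was highest, at 4.75, in POR-null control array 3, where 1419906_at of Hpgd read 6.73. It was lowest, at 4.33, in POR-null quercetin array 2, where 1419906_at read 6.31.

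**Figure D3:**
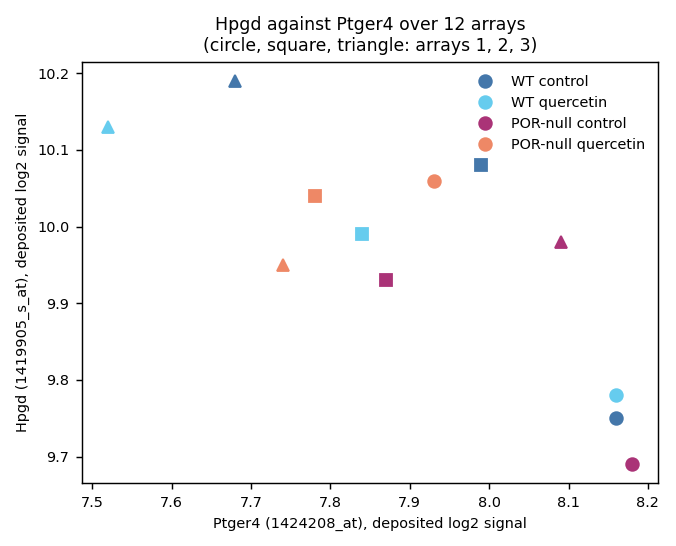
Deposited log2 signal of Hpgd (1419905_s_at, y axis) against Ptger4 (1424208_at, x axis) in 12 arrays, coloured by group; circles, squares and triangles are arrays 1, 2 and 3. The 3 arrays at the lower right, with Hpgd at 9.69 to 9.78, are array 1 of 3 different groups.

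Alox5ap encodes FLAP, the membrane protein that hands arachidonic acid to 5-lipoxygenase, and it had the widest range of the members, 1.05 log2 units. Its probe set read 6.91, 5.91 and 5.88 in wild type controls, 6.54, 6.71 and 6.58 on quercetin, 6.65, 6.93 and 6.66 in POR-null controls and 6.40, 6.74 and 6.68 in POR-null mice on quercetin. Wild type control arrays 2 and 3 were the lowest of all 12, and array 1 of that group was the second highest. The SD was therefore 0.59 in wild type controls and 0.09 to 0.18 in the other groups.

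POR-null mice on control diet had a mean Alox5ap of 6.75 against 6.23 in wild type controls, a difference of 0.51 (SE 0.22, 95% interval 0.04 to 0.99, limma adjusted p = 0.734). That interval uses the spread shared by all 4 groups, and in a fit of only the control diet groups it included 0. On quercetin the genotype difference was 0.00 (SE 0.22, interval -0.48 to 0.47). Quercetin gave 0.38 (SE 0.22, interval -0.10 to 0.85) in wild type and -0.14 (SE 0.22) in POR-null mice, with an interaction of -0.52 (SE 0.31, limma adjusted p = 0.998). The call depended on the wild type control arrays. Without array 1, the genotype difference on control diet was 0.85 with limma adjusted p = 0.0318 and passed, against 0.0318 to 0.999 over 18 alternatives, and the difference with quercetin in wild type mice was 0.715 with adjusted p = 0.0738. Without array 3 these differences were 0.34 and 0.20, and without array 2 they were 0.35 and 0.215. With all 12 arrays and array weights, the genotype difference on control diet was 0.83 and passed too (limma adjusted p = 0.0369). The weights were 0.534, 1.14 and 2.49 for wild type control arrays 1, 2 and 3. They were 0.606, 2.72 and 0.450 for POR-null control arrays 1, 2 and 3. Of all 22626 probe sets, 41 passed in this comparison without wild type control array 1 and 399 with array weights.

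Wild type control arrays 2 and 3 were also the lowest of the 12 in the lists of macrophage and dendritic cell, B and plasma cell, smooth muscle and fibroblast markers. The 20 macrophage and dendritic cell markers had a list mean of 6.08, 5.73 and 5.70 in wild type controls, and from 5.81 to 6.33 in the other groups, with 6 of 20 markers (Aif1, Ccr2, Cd163, Cd68, Fcgr1 and Itgam) below the lower quartile of mean signal. For genotype on control diet 16 of 20 were on the higher side (median 0.24) and 0 passed. The 9 B and plasma cell markers had 7.26, 6.23 and 6.18 in wild type controls and 6.46 to 7.96 elsewhere, and for genotype on control diet 9 of 9 were on the higher side (median 0.79), of which 0 passed. The 12 mast cell markers had 6.15, 5.43 and 5.47 in wild type controls and 5.36 to 6.44 elsewhere, with Fcer1a, Mcpt4 and Ms4a2 below the lower quartile. For genotype on control diet 7 of 12 were on the higher side (median 0.04). Of the stromal lists, 11 of 11 smooth muscle markers (median 1.34), 10 of 11 fibroblast markers (median 0.55) and 9 of 10 endothelial markers (median 0.21) were on the higher side in the same comparison. Neutrophil markers had 3 of 9 on the higher side (median -0.08) and T and NK cell markers 7 of 11 (median 0.06).

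Among the mast cell markers, the protease Mcpt1 of mucosal mast cells, chosen after values were seen, read 9.37 in POR-null control array 2 and 8.53 in wild type control array 1. These were also the 2 arrays of the highest Alox5ap, at 6.93 and 6.91. Mcpt1 lay between 5.05 and 7.25 in the other 10, with 5.19 and 5.05 in wild type control arrays 2 and 3. Of the 12 mast cell markers, 4 (Cma1, Fcer1a, Mcpt1 and Mcpt2) had the same 2 highest arrays as Alox5ap and 8 did not, and Tpsab1 was lowest of all in wild type control array 1, at 5.22. The same 2 arrays were highest for 1 of 11 T and NK cell markers (Itgae), 0 of 20 macrophage and dendritic cell markers and 0 in each other list. The share over all genes was not computed, so these counts have no background. Tuft cells, an epithelial type known to express Alox5ap, gave a flat list of 8 markers, between 5.25 and 5.44 in all 12 arrays. These were 8 of 13 markers listed, with Il25 and Siglecf below the lower quartile of mean signal. A flat list with dim markers cannot show that tuft cells did not vary. The part of these cells in the Alox5ap difference was not tested. The closest genes in course were Abcg1 (r = 0.937 over 12 arrays and 0.802 without the 2 arrays farthest from the Alox5ap median), Anxa3 (0.883 and 0.784) and Rasa4 (0.879 and 0.662).

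**Figure D4:**
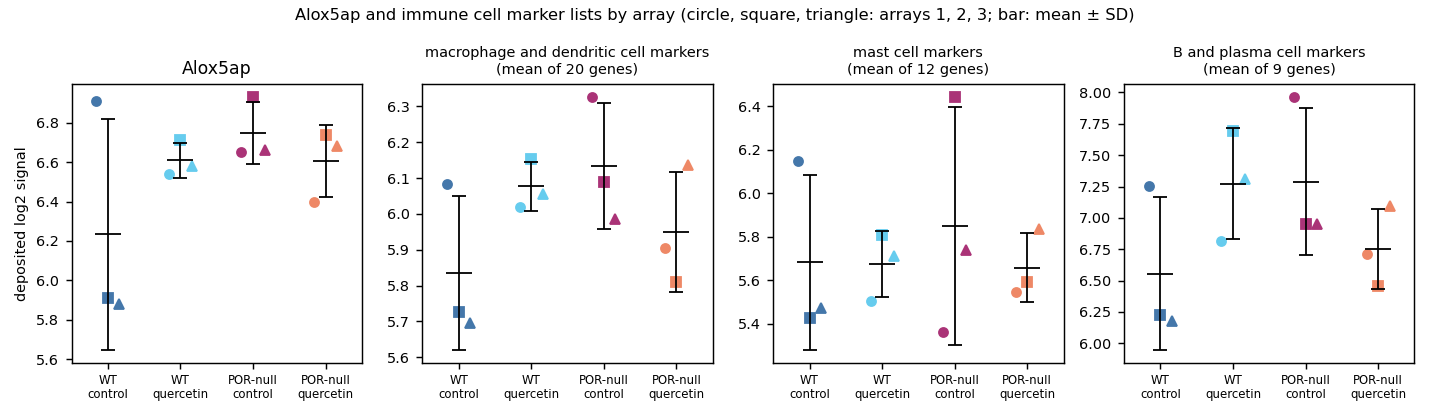
Deposited log2 signal (y axis, scaled for each panel) of Alox5ap and of the mean of 3 immune marker lists in 12 arrays by group (x axis); circles, squares and triangles are arrays 1, 2 and 3, and black bars are the mean and SD of 3 arrays. Wild type control arrays 2 and 3 are low in Alox5ap (5.91 and 5.88) and in the macrophage list (5.73 and 5.70), and array 1 is the highest of its group in both.

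Of 62 other symbols listed for the pathway, 50 had a probe set, and 0 passed in any of the 4 comparisons by limma (smallest adjusted p = 0.710). Their medians were -0.01 and 0.02 for quercetin in wild type and POR-null mice and -0.01 and 0.04 for genotype on control and quercetin diet. An unadjusted p under 0.05 was reached by 0, 1, 4 and 1 of the 50 genes in this order, against 5.07%, 2.56%, 6.46% and 2.28% of all 12393 named genes. The groups did not overlap for 3, 4, 5 and 4 of the 50 genes, against 9.31%, 6.75%, 9.67% and 6.82% of all probe sets. The 9 genes of the prostanoid receptor list, with the receptor regulator Ptgfrn among them, stayed between -0.16 and 0.15 for quercetin in wild type mice. The 6 lipoxygenases other than Alox5 stayed between -0.15 and 0.11.

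Cbr3, a carbonyl reductase related to the prostaglandin reductase Cbr1, stood out from the list by size. It read 8.08, 9.01 and 8.88 in wild type controls, 8.15, 8.18 and 7.94 on quercetin, 8.16, 7.33 and 6.98 in POR-null controls and 8.09, 8.48 and 8.05 in POR-null mice on quercetin. The control groups were the ones that spread, with SD 0.50 and 0.61 against 0.13 and 0.24 on quercetin, and array 1 of both lay near the quercetin arrays. POR-null mice differed from wild type by -1.17 (SE 0.28, limma adjusted p = 0.710) on control diet and by 0.12 (SE 0.28) on quercetin. Quercetin gave -0.57 (SE 0.28) in wild type and 0.72 (SE 0.28) in POR-null mice, an interaction of 1.28 (SE 0.39, limma adjusted p = 0.998). The quercetin difference was -0.855 in wild type mice without control array 1 and 0.46 in POR-null mice without control array 3 (1.05 without control array 1). With array weights the genotype difference on control diet passed (-1.39, limma adjusted p = 0.0261), over a range of 0.0261 to 0.999 in 18 alternatives. In that fit 399 of all 22626 probe sets passed in this comparison.

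Mgst2, a microsomal transferase that can make leukotriene C4, read 9.30, 9.51 and 9.45 in wild type controls and 9.25, 9.04 and 9.15 in POR-null controls, with no overlap. The difference was -0.27 (SE 0.12, limma adjusted p = 0.734), and it was -0.25 (SE 0.12) for quercetin in wild type mice. The phospholipase Pla2g7, which inactivates platelet activating factor, gave 0.34 (SE 0.18) for quercetin in wild type mice. In POR-null mice the prostaglandin receptor Ptger1 lay higher on quercetin without overlap (0.21, SE 0.10), and the epidermal lipoxygenase Aloxe3 gave 0.20 (SE 0.11).

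Between genotypes, the prostacyclin synthase Ptgis gave 0.23 (SE 0.11) on control diet. On quercetin the leukotriene receptor Cysltr2 gave -0.24 (SE 0.11) and the prostaglandin reductase Ptgr2 0.29 (SE 0.14), both without overlap, and the receptor Ptgfr gave 0.18 (SE 0.09), but -0.05 and -0.01 by its other probe sets. None of these passed by limma (adjusted p from 0.734 to 1.00). The phospholipases Pla2g15 and Pla2g6 gave -0.23 (SE 0.13) for the interaction and 0.21 (SE 0.13) for quercetin averaged over genotypes, and the other Pla2g15 probe set gave 0.11 (SE 0.13) for the interaction.

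**Figure D5:**
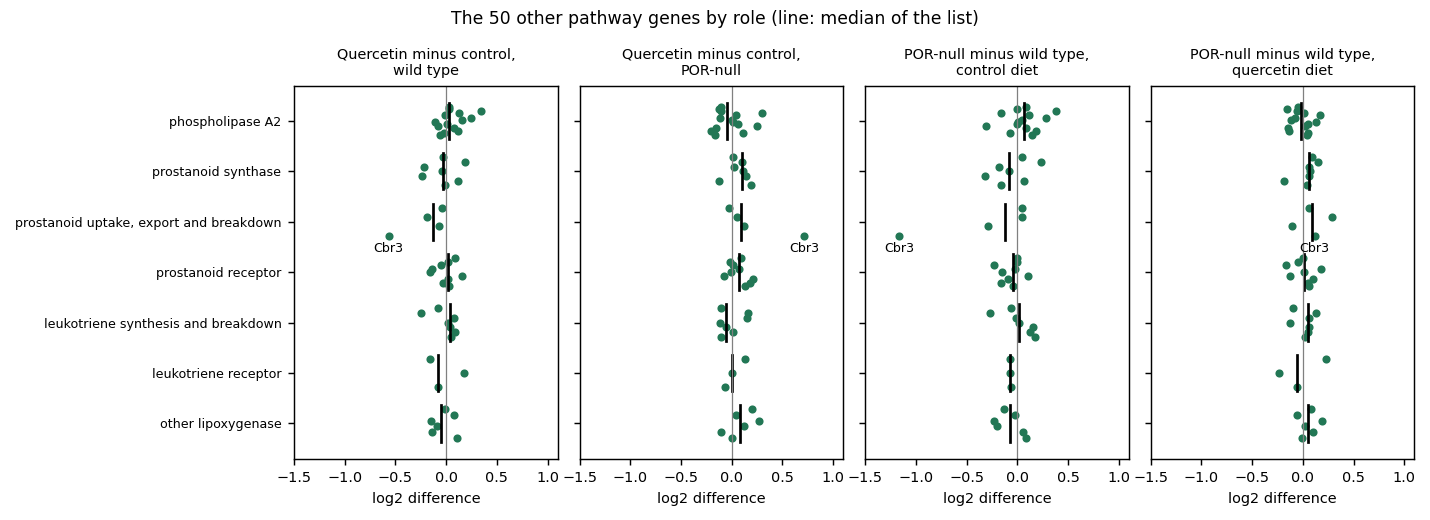
Log2 differences (x axis) of the 50 other pathway genes, grouped by role (rows), in 4 comparisons (panels); points are genes by their brightest probe set and black lines are list medians. Cbr3 lies farthest from 0 in the first 3 panels, at -0.57, 0.72 and -1.17, and 0 genes passed the adjusted threshold.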

How the data were processed

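RNA of scraped colon lining, pooled from 3 mice per array, was measured on 12 Affymetrix 430A arrays, per the labels. The table holds the log2 signal per probe set as deposited by the authors. Per the submitters' processing notes, the tools were MAS5 and RMA (no version or role is given), and the log base was inferred from the range, 2.7 to 14.09. No normalization was repeated. After leaving out 64 control probe sets, 22626 were tested without a filter. Names came from the array annotation, 20380 probe sets having 1 symbol.

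All 12 arrays entered 1 fit of 4 group means in limma 3.58.1 (R 4.3.3, eBayes with trend), with 7 contrasts, 8 residual degrees of freedom and two-sided tests adjusted by Benjamini and Hochberg. SE and intervals are from the moderated fit, and SD is over 3 arrays. The fit was tested on simulated data with changes of 1 log2 unit or more, and was not tested there for smaller changes. A gene is its probe set of the highest mean. Named were all members, up to 3 other pathway genes of the smallest p in a contrast, and the 3 genes of the highest correlation with a member of at least median signal. Members and lists were chosen with earlier results of these data known. Normalization, filter, variance prior, array weights, replicate block, samples in the fit, probe set summary and leaving out each array were the alternatives. Array number limits the precision, and p-values measure the spread between pools.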

Additional observations from a re-analysis of the deposited data

Results flagged for a closer look

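The dimmer Ptgs2 probe set, 1417262_at, moved in opposite directions between genotypes on the 2 diets without overlap, POR-null above wild type on control diet (3.47 to 3.61 against 3.29 to 3.41) and below it on quercetin (3.33 to 3.49 against 3.54 to 3.60). The interaction was -0.35 (limma adjusted p = 0.998), and 1417263_at, the brighter probe set of the gene, gave -0.07. The flagged probe set was dim, at the 4.85th percentile of mean signal, where a narrow spread does not bound the RNA. Of all probe sets, 9.67% did not overlap between genotypes on control diet and 6.82% on quercetin. The share with opposite directions on the 2 diets was not computed.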

How the results depend on the processing

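Differences of members and other named genes numbered 70, and 0 of 70 passed under quantile normalization, eBayes without trend or the replicate block. The median signal filter gave 38 of them (dim genes drop out), fits of only the groups compared gave 40 (no interaction or averages), the mean of a gene's probe sets gave 28 (4 members), and 0 of these passed. With array weights 399 probe sets passed for genotype on control diet, with 1 member (Alox5ap, 0.83), and Cbr3 (-1.39), and 2 for quercetin in wild type mice. Fits of only the groups compared and of the replicate block each called 1 probe set for genotype on quercetin. The replicate numbers were not used to pair the pools, since the labels give them no shared origin and deviations of same-numbered arrays correlated from -0.19 to 0.26 over 18 pairs. As a hint of pairing from the data, 8 of 12 arrays had their closest array of another group under the same number. The count to be met without pairing was not computed. With single arrays left out, 0 to 41 probe sets and 0 to 1 members passed for genotype on control diet, 0 to 3 probe sets for quercetin in wild type mice, 0 to 2 for the genotype average and 0 to 1 in the other 4 contrasts. Counts of 41 and 1 member came without wild type control array 1, and 3 came without wild type quercetin array 1. Of 840 differences with an array left out 52 changed sign or reached 0, and of 386 under other alternatives 10 did, all for values that had not passed, and the cause was not tested. The 10 were -0.0086 for Hpgd (quercetin average), -0.042 for Ptges (quercetin average) and 0.020 for Ptger4 (quercetin in wild type mice) with array weights; -0.028 for Ptges (genotype average), 0.057 for Ptgs2 (genotype on control diet), -0.033 for Hpgd (genotype on quercetin) and -0.015 for Ptgs2 (quercetin in POR-null mice) with the mean of all probe sets of the gene; 0.012 for Alox5ap (genotype on quercetin), -0.0060 for Ptges (quercetin average) and -0.0067 for Pla2g2a (quercetin in POR-null mice) with quantile normalization. With an array left out, the values that changed sign had these ranges. For quercetin in wild type mice, Hpgd ran from -0.17 to 0.053, Pla2g2a ran from -0.010 to 0.30, Pla2g4a ran from -0.32 to 0.087 and Ptger4 ran from -0.26 to 0.057. For quercetin in POR-null mice, Pla2g2a ran from -0.21 to 0.15 and Pla2g4a ran from -0.082 to 0.14. For genotype on control diet, Pla2g2a ran from -0.053 to 0.26 and Ptger4 ran from -0.028 to 0.21. For genotype on quercetin, Alox5ap ran from -0.070 to 0.10, Hpgd ran from -0.043 to 0.13, Pla2g2a ran from -0.25 to 0.11, Pla2g4a ran from -0.22 to 0.18 and Ptger4 ran from -0.18 to 0.14. For the interaction, Pla2g2a ran from -0.36 to 0.023, Pla2g4a ran from -0.043 to 0.36, Ptger4 ran from -0.29 to 0.033 and Ptgs2 ran from -0.16 to 0.067. For the quercetin average, Hpgd ran from -0.0092 to 0.10, Pla2g2a ran from -0.027 to 0.16, Pla2g4a ran from -0.14 to 0.065 and Ptges ran from -0.070 to 0.075. For the genotype average, Hpgd ran from -0.11 to 0.00083, Pla2g2a ran from -0.070 to 0.12, Pla2g4a ran from -0.20 to 0.0042 and Ptger4 ran from -0.040 to 0.12.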
